A study of Mus musculus with 6 samples.

Results

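Small nucleolar RNA host genes are transcribed into long RNAs whose introns carry small nucleolar RNAs (snoRNAs), the short guides that direct ribose methylation (box C/D class) or pseudouridylation (box H/ACA class) of ribosomal RNA. Here 7 of them were taken by symbol, Gas5, Snhg1, Snhg3, Snhg5, Snhg6, Snhg8 and Snhg12, and 6 of the 7 had a row among the 14986 genes of the deposited table; Snhg3 was not analysed here. All 6 were above the expression filter (a mean of at least 1 FPKM over all libraries), so they were 6 of 11837 tested genes. FPKM is a read count scaled to the exon length of the gene and to the depth of the library.

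The values came from poly(A) RNA of mouse long-term haematopoietic stem cells (LT-HSCs), the bone marrow cells that sustain all blood lineages, in 3 libraries labelled Zcchc8 KO and 3 labelled wild type (WT), each from 1500 sorted cells with amplified cDNA. Strain, age, the kind of Zcchc8 allele and the driver of any deletion are not stated in the labels, which name no treatment. The labels do not say that replicates came from separate animals, so p-values measure the spread between these libraries, which may be technical. ZCCHC8 holds together the NEXT complex (nuclear exosome targeting), which passes short-lived nuclear transcripts, among them extended forms of small RNAs, to the RNA exosome, and the study asked what its depletion does to the LT-HSC transcriptome.

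In the usual course of these genes the transcript is spliced, the snoRNA is trimmed out of the excised intron, and the joined exons leave the nucleus and are broken down by nonsense-mediated decay once translated. The exons encode no known functional protein in most of them. Many are made from promoters of the terminal oligopyrimidine (TOP) type, in which RNA begins with a C followed by further C or T bases, as in ribosomal protein genes. Blood stem cells are known for a low rate of protein synthesis.

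In GENCODE M21 on GRCm38, Gas5 lies at chr1:161034422-161038539 and Snhg6 at chr1:9941959-9944118, on the plus and the minus strand. Snhg1 (chr19:8723475-8726443) and Snhg12 (chr4:132308623-132311024) are on the plus strand. Snhg5 (chr9:88521050-88522929), Snhg8 (chr3:123507552-123508404) and Snhg3 (chr4:132348014-132353686) are on the minus strand. The 6 measured genes held 25 loci typed as snoRNA, with overlapping entries merged. Gas5 held 9, Snhg1 held 8, Snhg12 held 4, Snhg5 held 2 and Snhg6 and Snhg8 held 1 each, while Snhg3 held 2, Snora73a and Snora73b, of the family needed for processing of small-subunit ribosomal RNA. Against one spliced transcript per gene, that with the most exons among those not typed as retained intron, all 25 lay in introns, 1 per intron, in 25 different introns. Of the 25, 21 ended between 65 and 81 bp before the next exon, with a median of 75 bp over all 25, and the other 4 lay farther away. Joined exons came to between 448 and 781 bases in these transcripts.

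**Figure D1:**
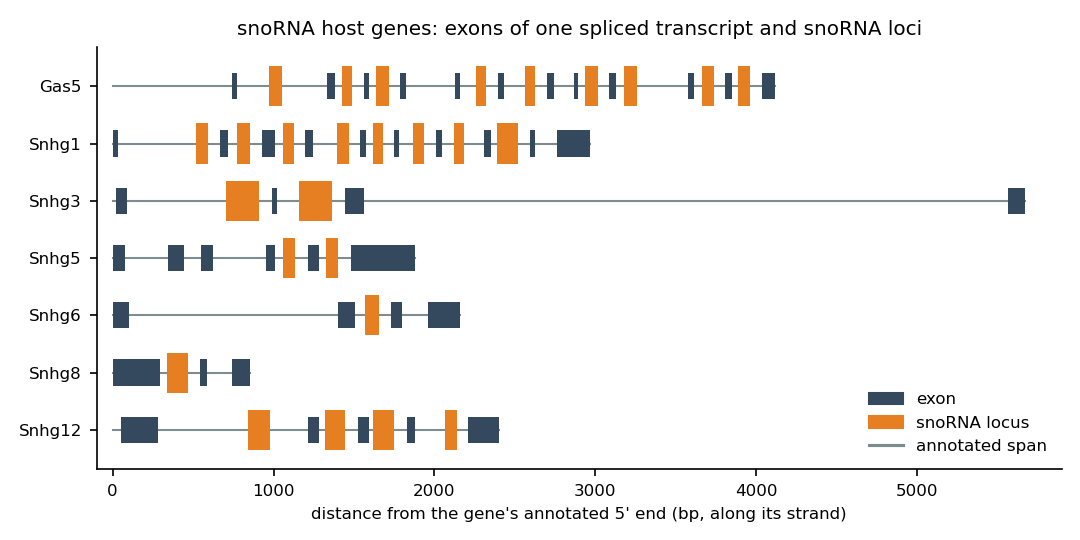
Exons of one spliced transcript (dark boxes), loci typed as snoRNA (orange boxes) and the annotated span (line) of the 7 host genes, by distance in bp from the annotated 5′ end along the gene's strand. Each orange box sits alone between 2 dark ones, as in Gas5 with 9 loci and Snhg1 with 8.

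The counted length differs from the spliced length, which sets what a level means here. A union of the exons of all 67 transcripts of the 6 genes takes in introns of the spliced transcript. GENCODE types 38 of the 67 as retained intron, all of them in Gas5, Snhg1, Snhg5 and Snhg8, while Snhg6 and Snhg12 have none of that type. The counted length was 3760 bases for Gas5 (spliced 502), 2969 for Snhg1 (605), 2402 for Snhg12 (606), 1730 for Snhg5 (781), 1146 for Snhg6 (473) and 853 for Snhg8 (448). With these lengths all 42 values of the 6 genes and of Snord87 came out as whole reads within 0.05. The union covered 100% of the span of Snhg1, Snhg8 and Snhg12 and 53.1% of that of Snhg6. A read from an intron that the union takes in is thus counted for the host, and the value does not separate it from a read of a joined exon. The 2 kinds need not count alike, since the aligner made no spliced alignments and reads across exon junctions can be lost.

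The starts of the genes are shown because the TOP class is defined by the first bases of the RNA. RefSeq promoters (GRCm38.p6) matched 6 of the 7 genes with 7 windows, Gas5 having 2; Snhg6 had none. Each line gives 20 bases before and 30 bases from the annotated start on the gene's strand, with capitals for a run of at least 5 C or T bases that opens with C within 5 bases of the start.
Gas5, upstream start (chr1:161034581-161034630, plus strand): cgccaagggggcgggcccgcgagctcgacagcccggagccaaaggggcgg
Gas5, downstream start (chr1:161035146-161035195, plus strand): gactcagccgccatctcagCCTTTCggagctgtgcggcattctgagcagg
Snhg8 (chr3:123508307-123508356, minus strand): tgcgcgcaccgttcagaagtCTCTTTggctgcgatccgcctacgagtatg
Snhg12 (chr4:132308658-132308707, plus strand): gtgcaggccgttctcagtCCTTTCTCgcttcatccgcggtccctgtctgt
Snhg3 (chr4:132353657-132353706, minus strand): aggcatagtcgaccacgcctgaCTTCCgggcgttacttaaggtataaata
Snhg5 (chr9:88522868-88522917, minus strand): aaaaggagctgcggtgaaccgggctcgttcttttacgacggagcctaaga
Snhg1 (chr19:8723467-8723516, plus strand): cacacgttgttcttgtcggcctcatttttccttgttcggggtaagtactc
Such a run was present in 4 of the 7 windows, 1 of them that of Snhg3, which was not analysed here. It was present in 16.1% of the 32851 windows of all genes and in 33.0% of the 91 windows of symbols of the ribosomal protein pattern. Only the run of Snhg8 opens at the annotated first base. The others open 1 base before it in Gas5, 2 bases before it in Snhg12 and 2 bases after it in Snhg3. The search was on the gene's strand, and a match is a description of these letters and of where the annotation puts the start.

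The reads behind the FPKM came to between 18963362 and 25709663 in KO libraries and between 18059318 and 18909212 in WT libraries. Zcchc8 was listed at 10.4, 5.54 and 5.92 FPKM in the libraries labelled KO, against 8.93, 5.24 and 5.16 FPKM in WT, a difference that does not check the labels, since 1 value over all exons cannot show the loss of single exons. Defining stem cell genes were present in both groups, among them Procr (mean 39.1 FPKM in KO and 52.6 in WT), Ly6a (153.1 and 129.2), Mecom (3.69 and 4.67) and Kit (23.2 and 36.7), and Hoxb5 was low (0.485 and 2.83) and listed at 0 in 1 KO library. The summed FPKM of 14 stem cell genes was 373 to 420 in KO and 489 to 563 in WT. None of the 13 tested passed, and 6 were lower in KO at an unadjusted p under 0.05, against 4.33% of all tested genes. RNA of other blood cells was present in both groups as well. The summed FPKM of 9 neutrophil genes was 3828 to 4252 in KO and 2993 to 3175 in WT, above that of the stem cell genes. Some markers of other blood cells differed between the groups. The summed FPKM of 5 eosinophil genes was 170 to 211 in KO and 1.05 to 3.25 in WT, and that of 8 erythroid genes 436 to 465 and 115 to 149. By limma adjusted p, 4 of 5 tested eosinophil genes and 4 of 7 erythroid genes passed as higher in KO, against 0.177% of all tested genes. The sum of 7 B cell genes was 82.1 to 117 in KO and 809 to 926 in WT, of which Igkc made up 0 to 1.35 and 746.1 to 865.8. Igkc passed as lower in KO. Of the other 5 tested B cell genes 4 were higher in KO at an unadjusted p under 0.05, against 4.87% of all tested genes. The median log2 difference of all 6 was 1.10. Of 4 tested genes of multipotent progenitors, the nearest descendants of the sorted cells, Cd48 (104.8 ± 4.21 FPKM in KO and 49.9 ± 4.05 in WT) and Dntt (15.7 ± 3.67 and 1.37 ± 0.685) passed as higher, with limma adjusted p of 0.0122 and 0.0125 (SD, n = 3 each). The other 2 tested progenitor genes were lower in KO by value and did not pass. H2-Aa and H2-Eb1 of 6 monocyte and dendritic cell genes and S100a9 of 9 neutrophil genes also passed as higher, and none of 4 T and NK cell genes passed. The neutrophil list went both ways. At an unadjusted p under 0.05, 4 of its 9 genes were higher in KO and 3 lower, against 4.87% and 4.33% of all tested genes. In bulk samples fewer cells of a type and less RNA per cell cannot be told apart. The part of such cells in the values below was not tested.

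The host genes did not pass the test of KO against WT. By limma on log2(FPKM + 1), none of the 6 had an adjusted p under 0.05 over all tested genes, against 0.228% of all tested genes (27; 0.177% higher and 0.0507% lower in KO). None had an unadjusted p under 0.05, against 9.2% of all tested genes (4.87% higher and 4.33% lower in KO). With limma-voom on recovered reads none of the 6 passed either. By value 3 were higher in KO (Gas5, Snhg1, Snhg12) and 3 lower (Snhg5, Snhg6, Snhg8), with log2 differences from -0.13 to 0.36 and a median of 0.11, beside a median of 0.00215 over all tested genes. In the fit on log2(FPKM + 1) each 95% interval lay inside a change of 1 log2 unit in either direction, the widest reach being 0.88 for Snhg12. The pseudocount of that fit understates changes of low genes. By limma-voom the log2 difference of Snhg12 was 0.38 with an SE of 0.32, so these limits hold for the first fit alone. The summed FPKM of the 6 genes was 247.1, 221.7 and 245.4 in KO libraries, against 225.4, 249.1 and 223.9 in WT libraries, and the groups overlapped.

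Gas5, named for its rise in growth-arrested cells and known in human cells as a decoy that binds the glucocorticoid receptor, was among the 3 that were higher in KO by value. It measured 39.5, 31.7 and 40.4 FPKM in KO libraries, against 22.8, 34.8 and 29.6 FPKM in WT libraries. KO libraries 1 and 3 were above all WT libraries, and KO library 2 lay below WT library 2. The KO mean was 37.2 ± 4.77 FPKM and the WT mean 29.1 ± 6.02 (SD, n = 3 each), a ratio of 1.28. The log2 difference was 0.36 ± 0.20 (SE), with a 95% interval of -0.089 to 0.80 and a limma adjusted p of 0.621. An exact permutation test (two-sided) returned p = 0.2, and 3 against 3 libraries allow none below 0.1. Without WT library 2 the log2 difference was 0.49, and without WT library 1 it was 0.20 (limma adjusted p = 0.635 and 0.816).

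Snhg12, the host of the H/ACA guides Snora16a, Snora44 and Snora61 and of Snord99, was the 1 gene of the 6 whose groups did not overlap. It measured 10.4, 8.30 and 9.72 FPKM in KO libraries, against 8.05, 6.03 and 8.04 FPKM in WT libraries. The lowest KO library stood just above the highest WT library, and WT library 2 stood below the others. The log2 difference was 0.33 ± 0.24 (SE) and the limma adjusted p 0.723. The exact permutation p (two-sided) was 0.1, the lowest this design allows. Of all tested genes 15.2% had groups that do not overlap (8.24% higher and 6.99% lower in KO), so 1 in 6 is near that background. These values rest on 378 to 642 reads in KO and 265 to 365 reads in WT.

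Snhg1, whose introns hold a row of box C/D snoRNAs including Snord22, measured 11.9, 7.74 and 9.92 FPKM in KO libraries, against 8.17, 8.63 and 7.57 FPKM in WT libraries. KO library 1 was the highest and KO library 2 lay inside the WT range. The spread was 21.1% of the mean in KO and 6.57% in WT, where counting error alone came to 4.05% and 4.75%. The log2 difference was 0.23 ± 0.24 (SE), with a limma adjusted p of 0.814. Without KO library 1 it was 0.10, and without KO library 2 it was 0.38 (limma adjusted p = 0.943 and 0.728).

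Snhg5, the host of Snord50a and Snord50b, measured 46.5, 50.7 and 49.5 FPKM in KO libraries, against 47.2, 55.4 and 58.3 FPKM in WT libraries. All KO libraries lay below WT libraries 2 and 3, and WT library 1 lay among them. The log2 difference was -0.13 ± 0.14 (SE), with a 95% interval of -0.44 to 0.19 and a limma adjusted p of 0.827. It was the steadiest of the 6 in KO, with a spread of 4.49% of the mean against 10.8% in WT.

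Snhg6, the host of Snord87, measured 86.9, 65.8 and 62.8 FPKM in KO libraries, against 66.7, 80.4 and 69.8 FPKM in WT libraries. The highest and the lowest value were both from KO, and the means were 71.8 ± 13.1 in KO and 72.3 ± 7.21 in WT (SD, n = 3 each). The log2 difference was -0.020 ± 0.16 (SE), with a 95% interval of -0.37 to 0.33. Snhg8, the host of the H/ACA guide Snora24, measured 52.0, 57.5 and 73.1 FPKM in KO libraries, against 72.5, 63.8 and 50.7 FPKM in WT libraries. Both groups spanned almost the same range, and the log2 difference was -0.033 ± 0.18 (SE), with a 95% interval of -0.44 to 0.38. Limma gave adjusted p of 0.987 for Snhg6 and 0.978 for Snhg8, and the sign of either difference turned when single libraries were left out.

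**Figure D2:**
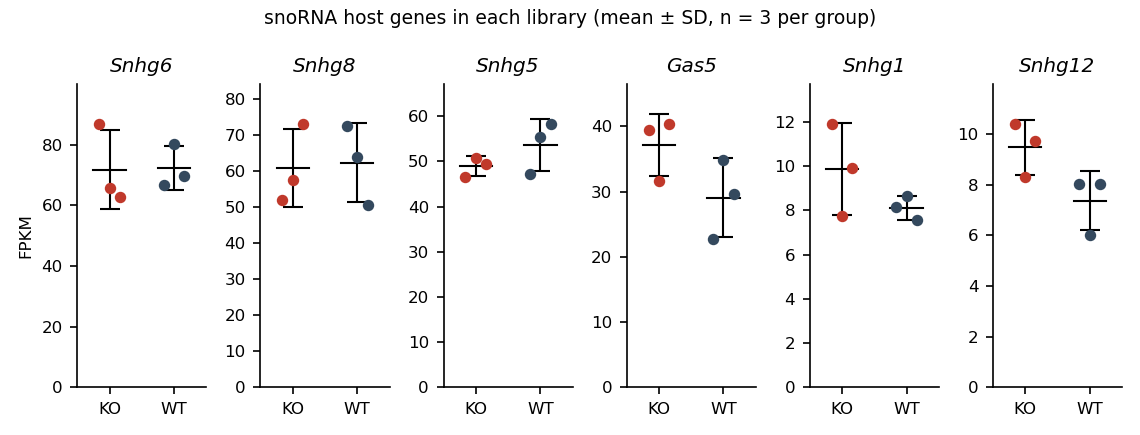
FPKM (each vertical axis from 0, with its own scale) of the 6 host genes in the 3 KO libraries (red) and the 3 WT libraries (dark), with the mean and SD in black; genes run from the highest mean on the left to the lowest on the right. The groups overlap in 5 genes, and in Snhg12 the KO libraries, at 8.30 to 10.4 FPKM, stand above the WT libraries, at 6.03 to 8.05 FPKM.

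The levels, as FPKM per counted length, fell into a high, a middle and a low class. Reads lost across exon junctions can differ between genes, and their part in this order was not tested. Over all 6 libraries Snhg6 averaged 72.0 ± 9.47 FPKM, Snhg8 61.6 ± 9.84, Snhg5 51.3 ± 4.68, Gas5 33.1 ± 6.58, Snhg1 8.99 ± 1.66 and Snhg12 8.42 ± 1.52 (SD, n = 6). Snhg5 exceeded Gas5 and Gas5 exceeded Snhg1 in all 6 libraries without overlap. Neighbours did not separate elsewhere, as Snhg6 was above Snhg8 in 4 libraries, Snhg8 above Snhg5 in 5 and Snhg1 above Snhg12 in 4. Ranked by reads instead, Gas5 led in every library, with 2260 to 3817 reads in KO and 1548 to 2394 in WT. Snhg6 had 1429 to 2559 reads in KO and 1380 to 1686 in WT. In every one of the 6 genes and in both groups the spread between libraries exceeded the counting error.

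The 6 profiles over the libraries differed among themselves. After each gene was centred on its own mean log2(FPKM + 1), the mean profile was 0.14, -0.072 and 0.11 in KO libraries 1 to 3, against -0.10, -0.00049 and -0.082 in WT libraries 1 to 3. KO library 1 was the highest library for Snhg1, Snhg6 and Snhg12 and the lowest for Snhg5. The root mean square distance of the members from this mean profile was 0.12 for Snhg1, 0.15 for Snhg6, 0.18 for Snhg5 and Snhg12, 0.19 for Gas5 and 0.23 for Snhg8. The nearest of these, Snhg1, was matched or exceeded in closeness by 478 tested genes outside the set. The mean profile spans only -0.10 to 0.14, so steady genes lie near it, and this count does not measure a shared pattern alone. The 5 closest were the chloride channel regulator gene Clca3a1 (0.026), the pseudogene Gm10275 (0.028), the ribosomal protein gene Rps20 (0.039), the pseudogene Gm10269 (0.039) and the glycolytic enzyme gene Tpi1 (0.046), over 6 libraries. Rps20 averaged 249.5 ± 17.2 FPKM in KO and 231.2 ± 6.90 in WT (SD, n = 3 each).

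Of the 25 snoRNA loci in the measured hosts, 24 lie wholly inside what is counted as host exon. The remaining one, Snord87 in an intron of Snhg6 that is not counted, was also the 1 with a row of its own, which gives a reading of the intron beside that of the exons. The box C/D guide is shown whole because its value is set beside that of its host. Capitals mark box C (searched as TGATGA, 1 match) and the last of 2 matches to box D (searched as CTGA) on the RNA strand, and the first and last 7 bases are complementary, as in the closing stem of this class.
Snord87 (chr1:9942463-9942549, minus strand, GENCODE M21 on GRCm38): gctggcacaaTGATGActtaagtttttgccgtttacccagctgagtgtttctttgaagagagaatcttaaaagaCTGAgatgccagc
Its 218-base intron places it 60 bases after the upstream exon and 71 bases before the downstream one.

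Snord87 measured 38.4, 21.2 and 29.3 FPKM in KO libraries, against 42.0, 46.5 and 44.4 FPKM in WT libraries. All KO libraries were below all WT libraries, as in 6.99% of all tested genes. The log2 difference was -0.60 ± 0.21 (SE), with a 95% interval of -1.08 to -0.12, an unadjusted p of 0.0202 and a limma adjusted p of 0.424, so it did not pass over all genes. The exact permutation p (two-sided) was 0.1, again the lowest this design allows. These levels rest on 35 to 86 reads in KO and 66 to 74 reads in WT, where counting error is 13.8% and 11.9% of the value. By limma-voom on recovered reads the log2 difference was -0.58 with an SE of 0.80 and an unadjusted p of 0.489. Without KO library 2, the lowest, the log2 difference was -0.39, and limma gave an adjusted p of 0.601.

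Set against its host, Snord87 stood at 44.3%, 32.3% and 46.6% of the FPKM of Snhg6 in KO libraries, against 63.0%, 57.8% and 63.6% in WT libraries. The groups did not overlap, with means of 41.0 ± 7.70% in KO and 61.5 ± 3.18% in WT (SD, n = 3 each). The log2 ratio differed by -0.60, with an exact permutation p (two-sided) of 0.1. This ratio was computed after the values of Snord87 were seen. Mature snoRNAs carry no poly(A) tail, and reads on 87 bases cannot tell a mature snoRNA from host RNA that keeps the intron. Of the 28 Snora and Snord rows of the table, all tested, none passed by limma, and their median log2 difference was -0.27. At an unadjusted p under 0.05, 8 were lower in KO and 1 higher, beside 4.33% and 4.87% of all tested genes. The 2 of smallest p were Snord35a (4.87 ± 2.01 FPKM in KO and 19.97 ± 5.12 in WT, SD, n = 3 each) and Snord23 (0.587 ± 1.02 and 6.51 ± 2.13), with limma adjusted p of 0.0754 and 0.129. Snord23 was listed at 0 in KO libraries 1 and 2. This fit on log2(FPKM + 1) does not weigh values by their reads, which are few on short rows. For Snord87, among the 8 lower rows, limma-voom gave an unadjusted p of 0.489. Reads and voom results of the other rows are not given here.

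**Figure D3:**
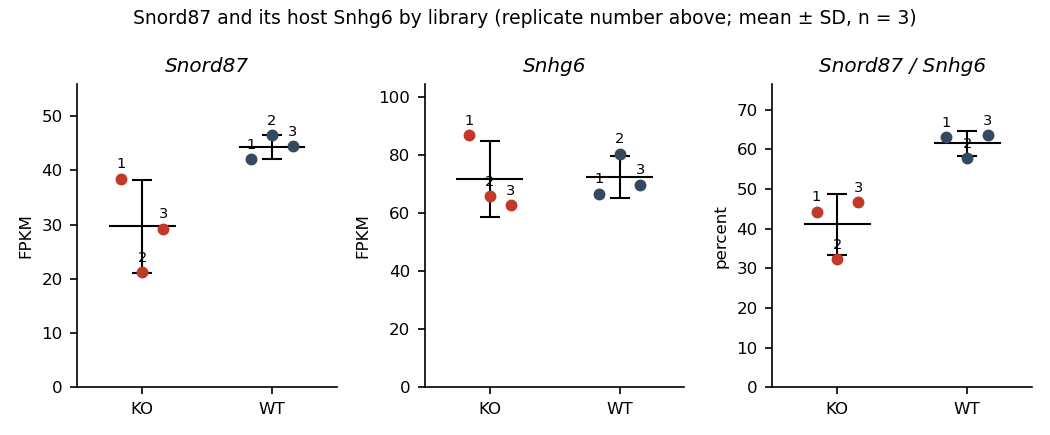
FPKM of Snord87 (left) and of its host Snhg6 (middle) and their ratio in percent (right) in the KO libraries (red) and the WT libraries (dark), with replicate numbers and with mean and SD in black. Snord87 is lower in each KO library (21.2 to 38.4 FPKM) than in any WT library (42.0 to 46.5 FPKM), while the values of Snhg6 overlap. Of all tested genes 6.99% are lower in KO without overlap.

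Another 9 noncoding hosts outside the set had rows, all tested, and none passed (limma), with none at an unadjusted p under 0.05. By value 2 were higher in KO and 7 lower, with a median log2 difference of -0.17. Of all 11837 tested genes 5946 were higher and 5891 lower by value. Snhg4 measured 10.9, 8.56 and 11.2 FPKM in KO libraries, against 8.03, 6.17 and 7.74 FPKM in WT libraries. Its groups did not overlap (limma adjusted p = 0.623). Of all tested genes 8.24% were higher in KO without overlap. Snhg20 averaged 24.7 ± 2.92 FPKM in KO and 31.9 ± 4.45 in WT, and Dancr 7.05 ± 1.30 and 11.6 ± 5.84 (SD, n = 3 each). Snhg16 averaged 4.57 ± 1.56 FPKM in KO and 2.98 ± 0.585 in WT, Snhg15 22.8 ± 3.72 and 27.5 ± 6.07, Snhg10 9.29 ± 0.972 and 9.61 ± 2.64, Zfas1 17.2 ± 3.51 and 18.9 ± 3.31 and Epb41l4aos 52.8 ± 17.8 and 57.5 ± 3.17. Snhg9, counted over 183 bases, was listed at 0.425, 0 and 5.77 FPKM in KO libraries, against 1.51, 6.27 and 7.51 FPKM in WT libraries.

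**Figure D4:**
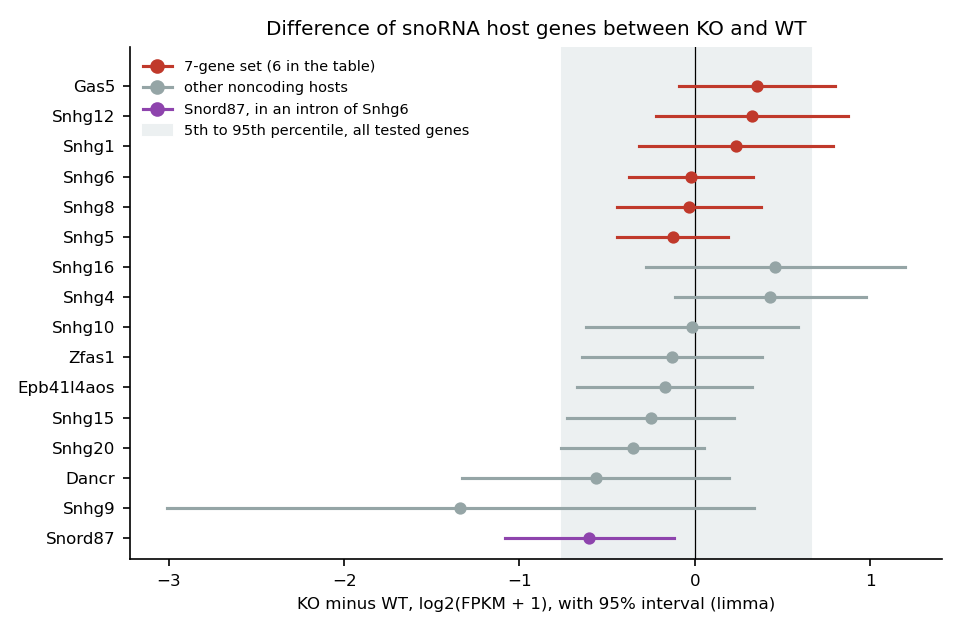
Difference of KO minus WT in log2(FPKM + 1) with its 95% interval (limma) for the 6 host genes (red), 9 other noncoding hosts (grey) and Snord87 (purple); the band runs from the 5th to the 95th percentile of all tested genes (-0.76 to 0.66). All intervals of the 6 host genes include 0 and that of Snord87 runs from -1.08 to -0.12, before adjustment over genes.

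Protein-coding genes can host snoRNAs as well, and 194 of 278 such genes by annotation were tested. None passed (limma), and the median log2 difference was 0.044. At an unadjusted p under 0.05, 9 were higher and 5 lower, beside 4.87% and 4.33% of all tested genes. The 27 tested ribosomal protein hosts had a median of 0.016, with Rps3, a small-subunit protein, at 145.0 ± 2.23 FPKM in KO and 120.8 ± 7.50 in WT (SD, n = 3 each, limma adjusted p = 0.473) and Rpl7a, a large-subunit protein, at 21.5 ± 2.48 and 16.3 ± 3.33. Of the other hosts, Cks2, a cell cycle kinase partner, averaged 176.2 ± 18.9 FPKM in KO and 117.4 ± 6.70 in WT, and Eng, an endothelial and stem cell receptor, 31.0 ± 3.31 and 47.4 ± 0.972, with limma adjusted p of 0.129 and 0.208.

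Proteins that join snoRNAs into particles did not pass either. Of all tested genes 4.87% were higher and 4.33% lower in KO at an unadjusted p under 0.05 (limma). Of 6 H/ACA genes 3 were higher at an unadjusted p under 0.05, Gar1 (59.4 ± 5.49 FPKM in KO and 30.6 ± 7.52 in WT, SD, n = 3 each), Nhp2 (205.4 ± 15.7 and 151.6 ± 13.2) and Nop10 (568.6 ± 57.1 and 470.9 ± 22.3), and the assembly factor gene Naf1 was lower (0.889 ± 0.550 and 2.60 ± 0.889). Nop10 and Naf1 are named after their values were seen, and limma gave adjusted p from 0.131 to 0.502 for these 4. In the box C/D list Snu13, which binds the motif formed by boxes C and D, averaged 71.3 ± 7.97 FPKM in KO and 53.1 ± 3.83 in WT, and Fbl, the methyltransferase, 8.40 ± 1.09 and 6.04 ± 0.641 (limma adjusted p = 0.385 and 0.646). Among 13 factors of particle assembly and transport 10 were higher by value and 3 lower, beside 5946 and 5891 of all 11837 tested genes. None of the 13 had an unadjusted p under 0.05. Their 2 of smallest p were Znhit6 (7.03 ± 1.78 and 10.3 ± 1.78) and the cap methyltransferase gene Tgs1 (9.62 ± 1.18 and 12.8 ± 0.287).

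Decay of the joined exons runs through nonsense-mediated decay, and none of its factors passed. Of 15 tested factors 7 were higher by value and 8 lower, with a median log2 difference of -0.00019, and none had an unadjusted p under 0.05 (limma). Etf1, the release factor, averaged 27.2 ± 3.71 FPKM in KO and 19.6 ± 3.77 in WT, and Smg9, of the SMG kinase complex, 6.22 ± 3.04 and 10.8 ± 2.64 (SD, n = 3 each). In the exon junction complex, Rbm8a averaged 14.5 ± 2.38 FPKM in KO and 21.1 ± 6.42 in WT and Eif4a3 26.2 ± 2.48 and 21.4 ± 3.59, and none of 6 had an unadjusted p under 0.05. Of 8 messages known in mammals as decay targets 6 were higher by value, beside 5946 of all 11837 tested genes. Atf4 and Gadd45a of them had an unadjusted p under 0.05 (limma), as 4.87% of all tested genes did in that direction. Atf4, the stress response factor, averaged 98.5 ± 16.2 FPKM in KO and 71.7 ± 12.8 in WT (limma adjusted p = 0.478). Gadd45a, a growth arrest gene, averaged 15.01 ± 5.34 and 7.25 ± 3.63 (limma adjusted p = 0.512).

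Genes that share the TOP class or the pathway above it stood near the median of all genes. The 20 tested TOP messages of translation had a median log2 difference of 0.052 and none passed (limma), with the nucleolar protein gene Npm1 (137.2 ± 4.25 FPKM in KO and 116.3 ± 5.85 in WT) the 1 member at an unadjusted p under 0.05 and the elongation factor gene Eef1g next (39.9 ± 5.45 FPKM in KO and 34.5 ± 3.26 in WT, SD, n = 3 each). The 83 ribosomal protein genes had a median of 0.053. At an unadjusted p under 0.05, 2 of them were higher and 2 lower, against 4.87% and 4.33% of all tested genes. The 2 of smallest p were Rps28 (2.65 ± 1.72 and 7.14 ± 1.10) and Rpl36al (3.76 ± 2.36 and 7.89 ± 0.913). None of the 15 genes of the TOR pathway and of TOP-binding proteins had an unadjusted p under 0.05, and the 2 of smallest p were Tia1 (8.12 ± 0.363 FPKM in KO and 5.83 ± 0.223 in WT) and Eif4ebp2 (6.86 ± 1.44 and 4.98 ± 0.930). Among 8 tested genes of the glucocorticoid receptor and its targets, listed because of Gas5, 6 were lower by value, beside 5891 of all 11837 tested genes. A link between these genes and Gas5 was not tested. Tsc22d3, a glucocorticoid-induced leucine zipper gene, averaged 82.1 ± 9.13 FPKM in KO and 112.2 ± 14.7 in WT, the transcription factor gene Zbtb16 0.564 ± 0.418 and 2.82 ± 1.36, and the receptor gene Nr3c1 7.99 ± 1.76 and 8.36 ± 2.15 (limma adjusted p = 0.353, 0.367 and 0.979).

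Neighbouring genes were looked at because divergent starts and overlaps can share reads. Slc3a2, an amino acid transporter subunit gene, begins 106 bp from Snhg1 on the other strand and measured 58.0, 61.9 and 70.8 FPKM in KO libraries, against 72.4, 57.8 and 64.7 FPKM in WT libraries. Its lowest KO value coincided with the highest of Snhg1, in KO library 1. Zbtb37, which overlaps the start of Gas5 on the other strand with no shared exon base, averaged 0.478 ± 0.394 FPKM in KO and 0.581 ± 0.399 in WT, below the filter. Mcmdc2 shares 127 exon bases with Snhg6 on the other strand and averaged 0.276 ± 0.464 and 0.454 ± 0.544 FPKM, also below the filter. Trnau1ap, near Snhg12, averaged 22.1 ± 4.37 FPKM in KO and 27.1 ± 2.53 in WT (SD, n = 3 each). Rcc1, a chromatin-bound exchange factor gene that overlaps Snhg3 on its strand, averaged 28.8 ± 6.68 FPKM in KO and 27.1 ± 6.43 in WT, and Phactr4, which lies upstream of it, 3.41 ± 2.19 and 3.40 ± 0.959. None of the tested neighbours named here passed, with limma adjusted p from 0.693 to 0.973.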

How the data were processed

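RNA was sequenced from sorted mouse LT-HSCs in 6 libraries, and groups and replicate numbers were taken from the titles. The authors deposited 1 table of FPKM per gene symbol; per the submitters' processing notes the tools were fastp, Bowtie2 and featureCounts and the build was mm10. Versions, annotation, strand use and the handling of multi-mapping or shared reads: not given in the sources used here. Bowtie2 makes no spliced alignments, so reads across the junctions of short host exons can be lost.

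Of the 14986 symbols, 14693 matched GENCODE M21 (GRCm38). FPKM times exon length gave whole reads within 0.05 for at least 97.9% of values below 100 reads. Such reads hold no molecular identifiers, so counting errors are lower limits. KO was compared with WT by limma 3.58.1 (R 4.3.3) with a variance trend on log2(FPKM + 1), genes of mean FPKM of at least 1, and Benjamini-Hochberg adjusted p under 0.05 among 11837 tested genes (two-sided). The fit was tested on simulated data. The pseudocount understates changes of low genes. Named besides the members were snoRNA rows inside them, genes within 5 kb, other noncoding hosts, of each further list the members that passed (up to 4) or otherwise the 2 of smallest p, and the 5 nearest profiles. Nop10, Naf1, Nr3c1 and the stem cell genes named for the label check fall outside this rule and were chosen after their values were seen. One neighbouring gene that this rule names is not reported here. Members and lists were chosen with earlier results of these data known. Alternatives changed the pseudocount, filter, scaling, variance model, block and libraries used. Figures were drawn with matplotlib 3.10.9.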

Additional observations from a re-analysis of the deposited data

How the results depend on the processing

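None of the 6 host genes passed under any of the 15 alternatives, and Gas5, Snhg1, Snhg5, Snhg12 and Snord87 kept their sign in all of them. Log2 differences ranged from 0.20 to 0.49 for Gas5 (adjusted p from 0.549 to 0.816; unadjusted p 0.0458 without WT library 2), from 0.10 to 0.38 for Snhg1, from -0.21 to -0.064 for Snhg5, from 0.21 to 0.41 for Snhg12 and from -0.80 to -0.39 for Snord87 (adjusted p from 0.313 to 0.847). With 1 library left out, Snhg6 ranged from -0.16 to 0.068 and Snhg8 from -0.17 to 0.082; each changed sign in 3 of these fits. Snord87 had an unadjusted p under 0.05 in 12 of the 15, and the exceptions were voom and the fits without KO library 2 or WT library 2. Over all genes, 27 calls became 8 without the variance trend, 8 with voom, 11 to 19 with 1 library left out and 11 with a replicate block; the cause was not tested. The replicate block changed no call of a host gene. Same-numbered libraries correlated at 0.00369 to 0.0235 in their deviations from group means, and libraries of unlike number at -0.0157 to 0.00885. With 3 libraries per group such values cannot show whether same-numbered libraries shared a day or batch. In simulated data of the same design 19.8% of changes of 1 log2 unit and 62% of changes of 2 log2 units were recovered over 11837 genes.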
